A study of Homo sapiens with 4 samples.

Results

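The genes described here encode heat shock proteins and J-domain chaperones. They were chosen by symbol: HSPA, HSPB, HSPH, DNAJA, DNAJB, DNAJC and BAG genes, the mitochondrial chaperonin genes HSPD1 and HSPE1, and the cytosolic HSP90 genes HSP90AA1 and HSP90AB1, without HSPA5, DNAJB9 and pseudogenes. The files held 69 such genes, of which 59 had an RPKM (a read count scaled to transcript length and library size) of at least 1 in at least 1 library, among 14626 such genes of 19801 listed. The 59 were 2 HSP90, 7 HSP70, 3 HSP110, 2 mitochondrial chaperonin, 3 small heat shock protein, 6 BAG and 36 J-domain genes. They were chosen by symbol and by this minimum level, with earlier results of these data known.

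The study asked how ailanthone (AIL), a plant compound, acts on prostate cancer cells, and it placed the target of AIL in the HSP90 chaperone machinery, at the co-chaperone p23. LNCaP, a prostate cancer cell line that responds to androgen, was transfected for 24 h with an empty vector or with a construct labelled AR1-651. For the next 12 h the cells were given AIL or were left without it. The conditions are thus empty vector and AR1-651, each without AIL and with it (+ AIL), and each was sequenced as 1 library. Differences between them rest on single libraries, have no replicate error and carry no p-value.

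Cytosolic chaperones work as a relay. A J-domain protein hands an unfolded client to HSP70 and triggers its ATP hydrolysis, a nucleotide exchange factor of the HSP110 or BAG family releases the client, and HSP90 with its co-chaperones completes the folding of clients such as signalling kinases. Heat shock factor 1 raises a subset of these genes when unfolded proteins accumulate, and drugs that occupy the ATP pocket of HSP90 commonly do the same.

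All 9 luminal prostate markers looked at (among them KLK3, FOLH1 and KRT18) had an RPKM of at least 11.55 in every library. Of 11 markers of basal, immune, endothelial and stromal cells, 8 were in the files, and of these CD68 and COL1A1 reached an RPKM of 1. The 8 together had a summed RPKM between 11.33 and 16.7. Conditions are named below by the labels of the libraries, and all sets of 4 values give empty vector cells first, without and then with AIL, and the libraries labelled AR1-651 last in the same way. KLK3, an androgen-induced gene, had 287, 303, 1442 and 582 RPKM. Ribosomal protein genes took 33.0% of the summed RPKM in the library labelled AR1-651 and between 22.3 and 25.5% in the other libraries.

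Stretches around or before the transcription start are shown for the members whose promoter holds the longer form of the heat shock element, and for DNAJB4, whose level differed most with AIL. The promoter table (RefSeq, GRCh38.p14, 250 bases before to 50 after a start) held 73 windows for 54 of the 59 genes, and none for BAG4, DNAJC1, DNAJC22, DNAJC24 or HSPA14. A pair of element units was searched as GAANNTTC or TTCNNGAA, and a run of 3 units, which contains overlapping pairs, as GAANNTTCNNGAA or TTCNNGAANNTTC, which covers both strands. The pair occurred in 17 of 73 member windows (23.3%), against 13.5% of all 35116 windows. The run of 3 units occurred in 6 of 73 (8.22%), against 0.49% of all windows. The 6 windows belonged to HSPA8, HSP90AA1, HSP90AB1, HSPD1, DNAJA1 and DNAJB6. Sequences run 5′ to 3′ on the strand of the gene, and capitals mark the matches (in DNAJB4 a pair alone). In DNAJA1 the printed stretch spans the start and the match lies after it, and in the others both lie before it. A match describes the letters and is no proof of a bound site.
HSPA8 (chr11:123062137-123062386, minus strand, the whole stretch before the start): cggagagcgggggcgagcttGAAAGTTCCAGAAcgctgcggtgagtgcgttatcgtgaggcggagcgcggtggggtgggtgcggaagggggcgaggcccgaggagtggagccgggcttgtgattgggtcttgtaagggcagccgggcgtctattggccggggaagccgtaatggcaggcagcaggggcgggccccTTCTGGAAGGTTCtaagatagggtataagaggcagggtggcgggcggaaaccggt
HSP90AA1 (chr14:102087087-102087166, minus strand, 80 bases): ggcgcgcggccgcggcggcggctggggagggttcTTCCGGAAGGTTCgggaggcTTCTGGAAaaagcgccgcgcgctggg
HSP90AB1 (chr6:44247744-44247823, plus strand, 80 bases): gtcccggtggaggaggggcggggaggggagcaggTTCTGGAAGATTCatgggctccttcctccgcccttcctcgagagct
HSPD1 (chr2:197500011-197500090, minus strand, 80 bases): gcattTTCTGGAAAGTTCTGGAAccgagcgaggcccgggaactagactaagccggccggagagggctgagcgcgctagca
DNAJA1 (chr9:33025213-33025292, plus strand, 80 bases): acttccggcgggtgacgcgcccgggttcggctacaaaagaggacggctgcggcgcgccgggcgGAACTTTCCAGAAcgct
DNAJB6 (chr7:157336839-157336918, plus strand, 80 bases): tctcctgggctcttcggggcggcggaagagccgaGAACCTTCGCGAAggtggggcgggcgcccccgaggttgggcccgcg
DNAJB4 (chr1:78004805-78004884, plus strand, 80 bases): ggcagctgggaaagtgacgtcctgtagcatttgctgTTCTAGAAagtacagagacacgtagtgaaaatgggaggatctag

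Across the 59 genes transcripts differed with AIL in both directions, and the most abundant chaperones were lower with it. In empty vector cells 5 members were at least 2-fold higher with AIL (8.47% of 59), while 9.53% of all 14626 genes were (change of log2(RPKM + 1) of at least 1). They were BAG1, DNAJA2, DNAJA3, DNAJB4 and DNAJC17. At least 2-fold lower were 4 members (6.78%), HSPA8, HSP90AA1, HSPH1 and DNAJC10, against 9.03% of all genes. In the libraries labelled AR1-651 and AR1-651 + AIL (the AR1-651 pair below), 5 members were at least 2-fold higher with AIL (BAG2, DNAJB4, DNAJB14, DNAJC2 and HSPA4L; 14.9% of all genes were) and 4 were at least 2-fold lower (HSPA8, HSP90AB1, DNAJC22 and HSPB9; 5.74% of all genes were). HSPB9 and BAG2 passed the minimum level in 1 library each, AR1-651 and AR1-651 + AIL. Among the 57 members with an RPKM of at least 1 in all 4 libraries, 3 were at least 2-fold lower in the AR1-651 pair (5.26%, against 5.23% of all such genes). The median log2 change of the members was 0.032 in empty vector cells and 0.056 in the AR1-651 pair, against -0.018 and 0.13 for all genes, and its sign turned with the scaling. In the AR1-651 pair it was -0.12 with the libraries scaled by the median ratio of their genes (4 higher and 9 lower past 2-fold) and -0.34 once the trend over length and GC content of the transcripts was removed (1 and 8), and that of all genes was then -0.028 and -0.029. In empty vector cells it was -0.075 after rescaling without ribosomal protein genes and -0.053 with the trend removed. The larger differences lay between single members, which are given by role below.

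**Figure D1:**
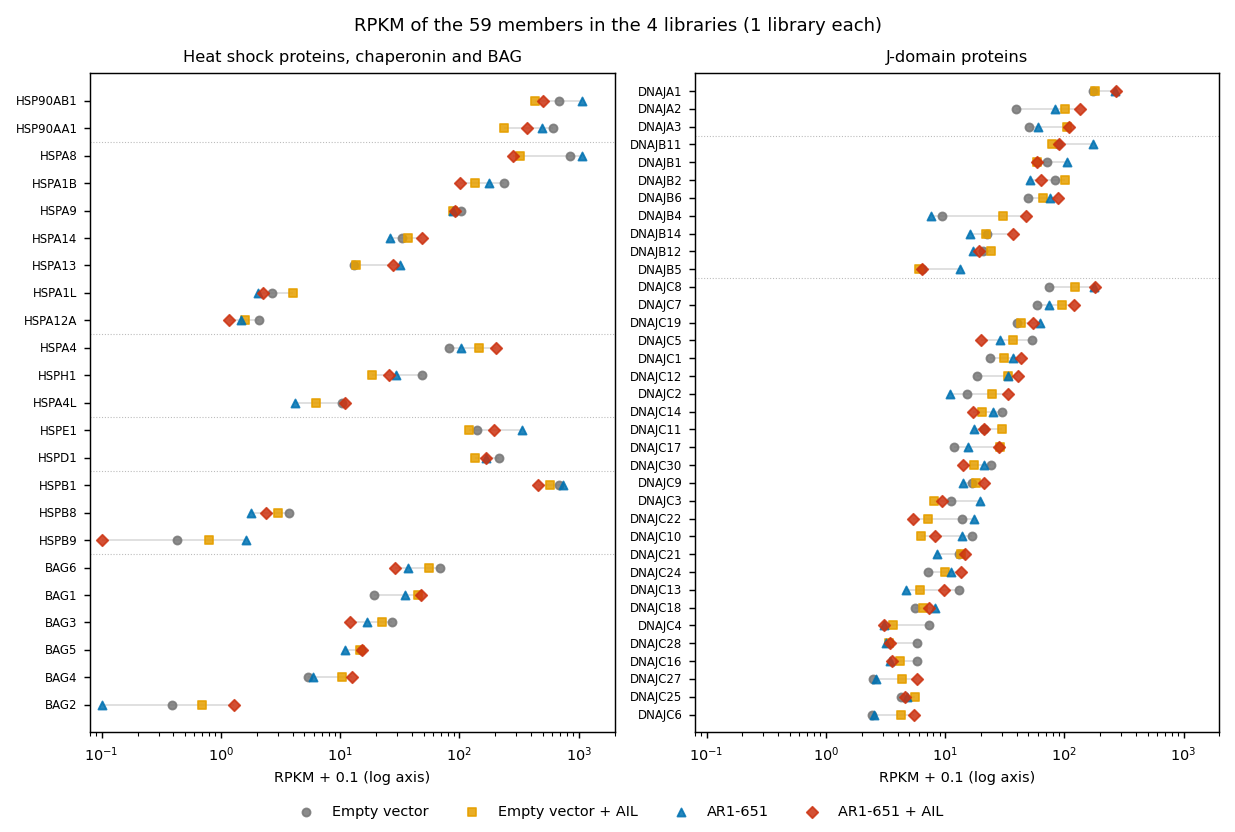
RPKM of the 59 genes in each of the 4 libraries (log axis, 0.1 added so that 2 values of 0 can be drawn; grey circle, empty vector; orange square, empty vector + AIL; blue triangle, AR1-651; red diamond, AR1-651 + AIL), ordered within each role by the highest level. HSPA8 stood at 847 and 1059 without AIL and at 324 and 281 with it, and DNAJB4 showed the reverse, with 9.25 and 7.54 without AIL and 30.7 and 48.0 with it.

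The transcripts of the cytosolic HSP90 pair were lower with AIL in both backgrounds. By western blot the study reported no fall of HSP90, HSP70 or HSP40 protein with AIL in prostate cancer cells. The values here are of RNA only, from transfected LNCaP cells. The blots were of LNCaP and other prostate cancer cells and of tumour grafts, in part at other times. HSP90AA1, the stress-inducible isoform, had an RPKM of 609.9, 237, 489.6 and 370.4. HSP90AB1, the constitutive isoform, had 688, 428, 1068 and 499.6. Both AIL libraries were below both libraries without AIL for each isoform. The isoforms differed in which background showed the larger difference. In empty vector cells HSP90AA1 with AIL was 0.388 times its level without (log2 change -1.36), and HSP90AB1 0.621 times (-0.69). In the AR1-651 pair the order was the reverse, with HSP90AA1 at 0.757 times (-0.40) and HSP90AB1 at 0.468 times (-1.09). The ratio of HSP90AB1 to HSP90AA1 was 1.13, 1.81, 2.18 and 1.35 in the 4 libraries. Summed, the 2 genes reached 1298 and 664 RPKM without and with AIL in empty vector cells, and 1558 and 870.0 in the AR1-651 pair. Processed pseudogenes nearly identical to these genes, and to HSPA8, HSPB1, HSPD1, HSPE1 and DNAJA1, exist, and how the authors placed reads that match several copies is not given in the sources used here, so these levels are uncertain to that extent.

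Among the HSP70 genes HSPA8 differed most with AIL. It encodes HSC70, the constitutive cytosolic HSP70, and was the most abundant member with empty vector. Its RPKM was 847, 324, 1059 and 281, so that the AIL libraries lay far below the others in both backgrounds. With AIL it was 0.383 times its level in empty vector cells (log2 change -1.38) and 0.266 times in the AR1-651 pair (-1.91). In the AR1-651 pair 0.9% of all genes had a change as low or lower, and in empty vector cells 3.5%. No other member was at least 2-fold lower in both. HSPA8 made up 68.5% and 76.3% of the summed HSP70 RPKM without AIL, and 53.8% and 50.8% with AIL.

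The stress-inducible HSP70 was represented by HSPA1B. HSPA1A, which is nearly identical to it, was not analysed here, so its share of the reads is uncertain. HSPA1B had an RPKM of 236, 134, 179 and 101, and was 0.567 and 0.568 times as high with AIL in the 2 backgrounds (log2 changes -0.81 and -0.81). HSPA6, the HSP70 that is almost silent without heat stress, stayed at an RPKM of 0.38 or less in all libraries. HSPA9, the mitochondrial HSP70 (mortalin), varied least of the 57 members with at least 1 RPKM in every library, with 102, 88.1, 88.6 and 92.1 RPKM and a ratio of 1.16 between its highest and lowest library. HSPA14, which works at the ribosome with DNAJC2, had 33.0, 36.9, 26.3 and 48.4, with log2 changes of 0.15 and 0.86 with AIL. HSPA13, an HSP70 of the endoplasmic reticulum (ER), differed by construct rather than by AIL. It had 13.02 and 13.5 RPKM with empty vector and 31.9 and 27.8 in the libraries labelled AR1-651. HSPA1L and HSPA12A did not exceed an RPKM of 3.91.

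The exchange factors of HSP70 did not follow HSPA8 as a group. HSPH1 (HSP105), a heat-inducible exchange factor, had 48.1, 18.5, 29.02 and 25.65 RPKM. With AIL it was 0.384 times as high in empty vector cells (log2 change -1.33) and 0.884 times in the AR1-651 pair (-0.17). HSPA4 (APG-2), its constitutive relative, was higher with AIL in both backgrounds, with 81.7, 145, 102 and 204 RPKM and log2 changes of 0.82 and 0.99. Since HSPA8 was lower at the same time, the ratio of HSPA4 to HSPA8 was 0.0965 and 0.447 without and with AIL in empty vector cells, and 0.0964 and 0.727 in the AR1-651 pair. HSPA4L (APG-1) had 10.2, 6.21, 4.05 and 10.8 RPKM. It was lower with AIL in empty vector cells (log2 change -0.63) and higher in the AR1-651 pair (1.23).

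BAG proteins bind the ATPase domain of HSP70 and release its client. BAG1, the first described of the family, had 19.2, 44.7, 35.1 and 47.5 RPKM, lowest with empty vector alone. It was 2.33 times as high with AIL in empty vector cells (log2 change 1.18) and 1.36 times in the AR1-651 pair (0.43). BAG3, a heat-inducible member that directs clients to autophagy, had 27.2, 22.4, 16.6 and 12.0. The ratio of BAG1 to BAG3 was 0.705 with empty vector alone and 3.97 in the library labelled AR1-651 + AIL. BAG6, which keeps membrane proteins soluble before insertion, was the most abundant BAG gene in 3 libraries and had 68.6, 55.1, 37.1 and 28.96, below empty vector in both libraries labelled AR1-651. BAG4 had 5.32, 10.2, 5.8 and 12.5, with log2 changes of 0.82 and 0.99 with AIL, and BAG5 had 14.7, 14.65, 10.9 and 15.0. BAG2, an inhibitor of the ubiquitin ligase CHIP, was close to the limit of 1 with 0.29, 0.6, 0 and 1.19, and no fold is given against the library in which it was listed at 0.

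The chaperonin of the mitochondrial matrix is built from HSPD1 (HSP60) and its lid HSPE1 (HSP10). HSPD1 had an RPKM of 213, 134, 166 and 167, and HSPE1 had 141, 119.8, 335 and 195. HSPE1 was highest in the library labelled AR1-651 and lower with AIL there (0.583 times, log2 change -0.78), while HSPD1 was level there (log2 change 0.0005) and lower with AIL in empty vector cells (-0.67). The ratio of HSPE1 to HSPD1 was 0.66, 0.895, 2.01 and 1.17. HSPE1 has a short transcript of 950 bases, and the change in the comparison of constructs was related to transcript length across genes, as given below.

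HSPB1 (HSP27), which holds unfolded proteins without ATP, supplied 99.4% or more of the small heat shock protein RPKM. It had 684, 579, 734 and 459 RPKM and was lower with AIL by 0.24 and 0.68 on the log2 scale. HSPB8, the partner of BAG3, had between 1.67 and 3.64 RPKM, and HSPB9, a gene known mainly from testis, had 0.33, 0.7, 1.53 and 0. HSPB6 was under the limit in all libraries.

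**Figure D2:**
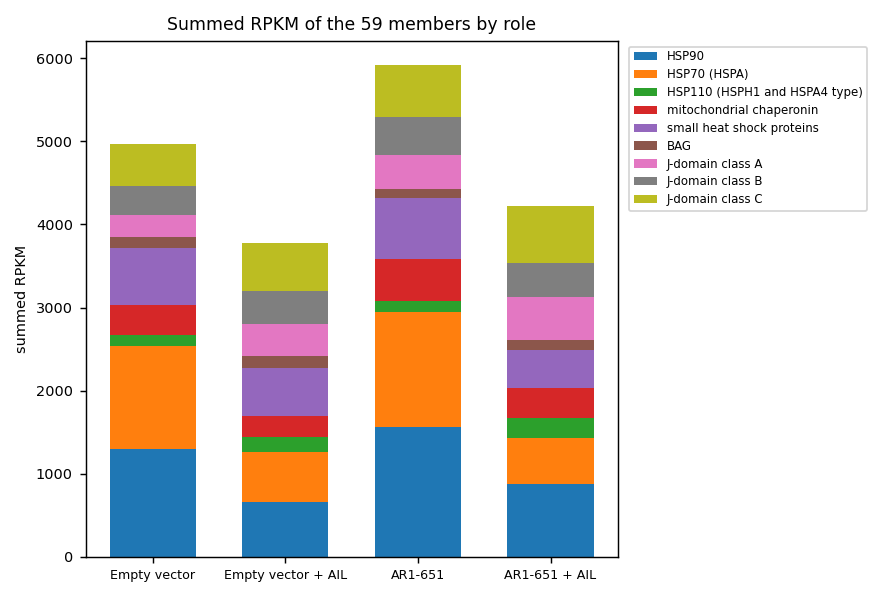
Summed RPKM of the 59 genes in each library (bars from 0, stacked by role; 1 library per bar). The sum was 4964 and 3780 without and with AIL in empty vector cells and 5915 and 4227 in the AR1-651 pair, with shorter HSP70 and HSP90 segments with AIL.

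The summed RPKM of the members was 4964, 3780, 5915 and 4227, which was 0.988%, 0.705%, 0.914% and 0.747% of all RPKM in the library. The sum over HSP70 genes was 1236, 602, 1388 and 554. The J-domain genes had 1114, 1360.4, 1491 and 1622, higher with AIL in both backgrounds, but lower with it in the AR1-651 pair with median-ratio scaling (1702 without and 1589 with AIL). The ratio of the J-domain sum to the HSP70 sum was thus 0.901 and 2.26 without and with AIL in empty vector cells, and 1.07 and 2.93 in the AR1-651 pair. A ratio within a library does not depend on a scaling by 1 factor per library. A trend over length or GC content need not cancel in it, and the ratios were not recomputed with the trend removed. The 5 genes HSPA8, HSP90AA1, HSP90AB1, HSPB1 and HSPA1B held 61.7% and 59.7% of the summed member RPKM without AIL, and 45.0% and 40.5% with AIL.

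Of the 36 J-domain genes, 22 were higher with AIL in empty vector cells (7069 of all 14626 genes were) and 24 in the AR1-651 pair (8223 of all genes were). Their median log2 changes were 0.17 and 0.19. With the libraries scaled by the median ratio of their genes, the median in the AR1-651 pair was -0.020, with 18 genes higher and 18 lower, and in empty vector cells it was 0.16. With the length and GC trend removed the medians were 0.17 in empty vector cells and -0.23 in the AR1-651 pair, where 17 were higher and 19 lower, 1 and 4 of them past 2-fold. Of the other 23 members, 8 and 11 were higher, with medians of -0.24 and -0.17.

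Class A proteins, which resemble bacterial DnaJ and deliver clients to HSP70, had median changes with AIL of 1.06 in empty vector cells and 0.69 in the AR1-651 pair over 3 genes, and the sign of DNAJA1, which hardly differed, turned with the scaling (-0.19 in the AR1-651 pair with median-ratio scaling). The class A median in the AR1-651 pair was 0.10 with the length and GC trend removed. DNAJA1, an HSP40 of the cytosol and the most abundant J-domain gene in these cells, had 175, 179, 267 and 273 RPKM. Its log2 change with AIL was 0.032 in both backgrounds, and it was 1.52 times as high in the libraries labelled AR1-651 with and without AIL. DNAJA2, its cytosolic relative, had 39.1, 102, 82.8 and 134, lowest with empty vector alone. It was 2.61 times as high with AIL in empty vector cells (log2 change 1.36) and 1.62 times in the AR1-651 pair (0.69). DNAJA3 (TID1), the partner of HSPA9 in mitochondria, had 50.55, 106, 60.2 and 110.1, with the AIL libraries above the others. Its log2 changes were 1.06 and 0.86.

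DNAJB4 had the largest difference of any member. This class B protein of the cytosol, known as HLJ1, is itself heat inducible. Its RPKM was 9.25, 30.7, 7.54 and 48.0, so that it was 3.31 times as high with AIL in empty vector cells (log2 change 1.63) and 6.36 times in the AR1-651 pair (2.52). The change lay at percentile 97.4 and 99.3 of all genes, and no other member was at least 2-fold higher in both backgrounds. DNAJB1, the main heat-inducible HSP40 and the usual partner of HSPA1 and HSPA8, differed from it, with 71.0, 59.3, 106 and 59.3 RPKM and log2 changes of -0.26 and -0.83. The ratio of DNAJA1 to DNAJB1 was 2.47 and 3.02 without and with AIL in empty vector cells, and 2.51 and 4.61 in the AR1-651 pair.

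DNAJB5 had 6.25, 5.92, 13.2 and 6.31 RPKM, standing out in the library labelled AR1-651. DNAJB6 and DNAJB2, which prevent aggregation of polyglutamine proteins, had 49.5, 65.6, 75.7 and 88.7, and 84.3, 102, 51.7 and 64.0 RPKM, and were slightly higher with AIL in both backgrounds (log2 changes of 0.40 and 0.23, and of 0.27 and 0.30). DNAJB14, a J-domain protein of the ER membrane that faces the cytosol, had 22.6, 21.8, 16.1 and 37.1. It hardly differed with AIL in empty vector cells (log2 change -0.050) and was 2.31 times as high in the AR1-651 pair (1.16).

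Class C proteins share only the J domain and act in many places. DNAJC2 (MPP11), which sits on the ribosome with HSPA14, had 15.2, 24.8, 10.9 and 33.9 RPKM, higher with AIL in both backgrounds (log2 changes 0.67 and 1.55). DNAJC17, a nuclear protein linked to splicing, had 11.85, 28.7, 15.35 and 28.2, with log2 changes of 1.21 and 0.84. DNAJC7 (TPR2), which passes clients between HSP70 and HSP90, had 59.0, 95.4, 74.7 and 120.3 and log2 changes of 0.68 and 0.68. These 3 genes had both AIL libraries above both libraries without AIL. DNAJC22 showed the reverse order with 13.8, 7.04, 17.3 and 5.29 RPKM and log2 changes of -0.88 and -1.54. DNAJC5, the cysteine string protein of secretory vesicles, had 53.95, 36.9, 29.1 and 20.02, lower with AIL by 0.54 and 0.52 on the log2 scale. DNAJC8, a protein of the spliceosome, had 74.7, 123, 178 and 182 and was lowest with empty vector alone. DNAJC13 (RME-8), which acts in sorting at endosomes, had 12.99, 6.02, 4.61 and 9.71, with log2 changes of -0.99 and 0.93, and DNAJC4 had 7.19, 3.55, 2.95 and 3.0, highest with empty vector alone.

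**Figure D3:**
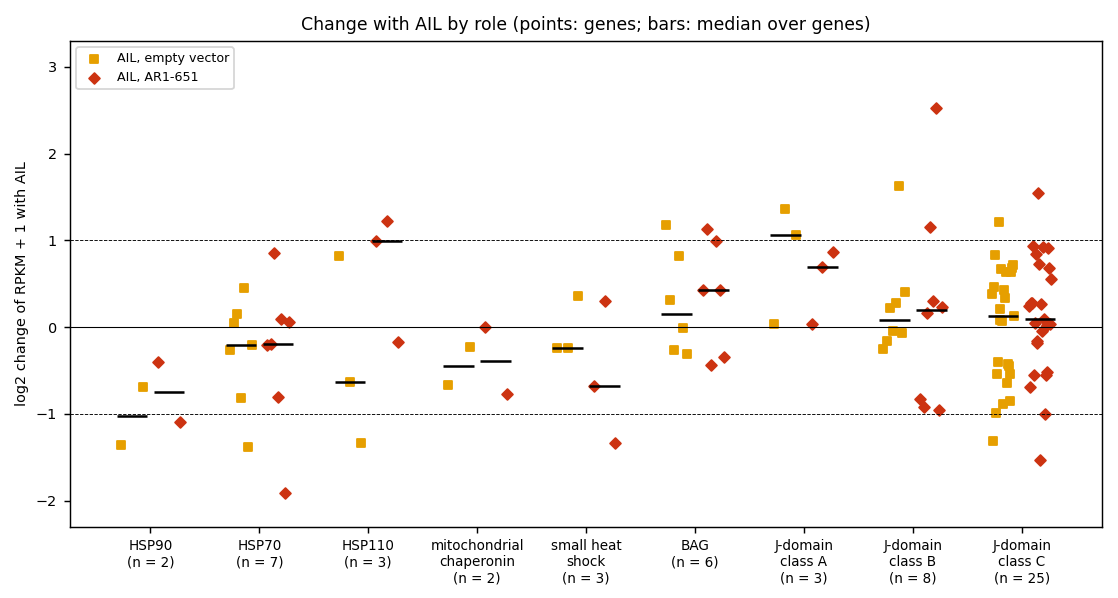
Change of log2(RPKM + 1) with AIL for each gene, grouped by role (orange squares, empty vector cells; red diamonds, AR1-651 pair; black bars, median over the genes of the role; dashed lines, 2-fold). The 2 HSP90 genes sat below 0 in both backgrounds and the 3 class A genes above it (DNAJA1 at 0.032, below 0 in the AR1-651 pair with median-ratio scaling), and the 25 class C genes spread on both sides with medians of 0.13 and 0.092 (-0.077 in the AR1-651 pair with median-ratio scaling).

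Members of the ER were described together with the ER chaperones that the symbol rule left out. ERdj proteins are J-domain partners of HSPA5 (BiP), the HSP70 of the ER lumen. DNAJB11 (ERdj3) had 88.0, 78.75, 173 and 90.9 RPKM, DNAJC3 (P58IPK) had 11.1, 8.03, 19.7 and 9.36, and DNAJC10 (ERdj5), which reduces disulphide bonds, had 16.9, 6.2, 13.9 and 8.19. These lumenal proteins, grouped after their values were seen, were lower with AIL in both backgrounds, with log2 changes of -0.16 and -0.92, -0.42 and -0.998, and -1.31 and -0.70. Of the 9 members placed in the ER, 3 were lower in both backgrounds, 2 were higher in both (DNAJB12 and DNAJC1) and 4 went opposite ways. HSPA5 itself had 268, 84.7, 428 and 77.6. Of 12 measured ER and mitochondrial chaperones outside the members, 3 were at least 2-fold lower with AIL in empty vector cells (9.03% of all genes were). In the AR1-651 pair 8 were (CALR, DNAJB9, HSP90B1, HSPA5, LONP1, PDIA3, PDIA4 and PDIA6; 5.74% of all genes were). At least 2-fold higher were 0 in either (9.53% and 14.9% of all genes were), and the medians were -0.83 and -1.20. Both medians stayed below 0 with median-ratio scaling and after correction for length and GC content. Of the mitochondrial genes, LONP1 had changes of -0.92 and -1.46, while CLPB, CLPP and TRAP1 lay between -0.30 and 0.37.

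A list of 13 measured members taken as heat inducible (HSP90AA1, HSP90AB1, HSPA1B, HSPA8, HSPA4L, HSPH1, HSPB1, HSPD1, HSPE1, BAG3, DNAJA1, DNAJB1 and DNAJB4) was read as a set. It includes HSPA8 and HSP90AB1, described above as constitutive, which were the 2 at least 2-fold lower with AIL in the AR1-651 pair. With AIL, 11 of the 13 were lower in empty vector cells and 9 in the AR1-651 pair, with medians of -0.63 and -0.44 against -0.018 and 0.13 for all genes. At least 2-fold lower were 3 in empty vector cells and 2 in the AR1-651 pair, and at least 2-fold higher were DNAJB4 in both and HSPA4L in the AR1-651 pair. Of all genes 9.03% and 5.74% were that much lower, and 9.53% and 14.9% that much higher. Lower in both backgrounds were 9 (BAG3, DNAJB1, HSP90AA1, HSP90AB1, HSPA1B, HSPA8, HSPB1, HSPE1 and HSPH1) and higher in both were DNAJA1 and DNAJB4. The count of lower genes was 11 or 12 in empty vector cells and between 9 and 11 in the AR1-651 pair under the other scalings. The 13 genes held 3760 and 2271 RPKM without and with AIL in empty vector cells, and 4461 and 2502 in the AR1-651 pair. Of the transcription factors, HSF1 had 47.55, 45.1, 24.35 and 23.4 RPKM, lower in both libraries labelled AR1-651 and level with AIL. HSF2 had 5.33, 11.65, 4.22 and 17.7, higher with AIL by 0.999 and 1.84 on the log2 scale. HSF4 had 9.31, 3.68, 2.67 and 2.29, highest with empty vector alone, with changes of -1.14 and -0.16 with AIL.

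The 6 genes with a run of 3 element units did not differ with AIL in 1 direction. In empty vector cells with AIL 4 of the 6 were lower (HSPA8, HSP90AA1, HSP90AB1 and HSPD1) and 2 were higher (DNAJA1 and DNAJB6), with a median of -0.68, and in the AR1-651 pair 3 were lower, with a median of -0.20. Of all 14626 genes 7452 and 6215 were lower. The 45 genes outside the members with such a run and an RPKM of at least 1 in any library had medians of -0.095 and 0.053. HSPA8 and HSP90AB1, which hold 2 separate runs each, had changes of -1.38 and -0.69 in empty vector cells and of -1.91 and -1.09 in the AR1-651 pair. HSPD1, whose 2 matches overlap in 1 continuous stretch, had -0.67 in empty vector cells, close to HSP90AB1, and 0.0005 in the AR1-651 pair. The 10 members with a pair and no longer run had medians of -0.22 and 0.20, and the 38 with neither had 0.058 and 0.046.

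The library labelled AR1-651 differed from empty vector at 4 members that were at least 2-fold higher (DNAJA2, DNAJC8, HSPA13 and HSPE1; 4.01% of all genes were) and 3 that were at least 2-fold lower (DNAJC13, DNAJC4 and HSPA4L; 11.7% of all genes were). These were 6.78% and 5.08% of the 59. The log2 changes of the 4 higher genes ran from 1.06 (DNAJA2) to 1.25 (HSPE1), and those of the lower genes from -1.32 (DNAJC13) to -1.05 (DNAJC4). The median of the members was -0.18 and that of all genes -0.30. Median-ratio scaling moved the median of all genes to -0.085 and that of the members to 0.072, so the direction of the members as a whole in this comparison depends on the scaling, while the members lay above all genes in both. The abundant chaperones HSPA8, HSP90AB1 and HSPB1 had changes of 0.32, 0.63 and 0.10, and HSP90AA1 and HSPA1B had -0.32 and -0.40. Direction in this comparison rests on the label of the library.

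With AIL in both, the libraries labelled AR1-651 and empty vector had the fewest genes past 2-fold. No member was at least 2-fold higher (1.46% of all genes were) or at least 2-fold lower (3.56% of all genes were). The changes ran from -0.90 (BAG6) to 0.99 (HSPA13), 39 members were higher and 20 lower, and the median was 0.20 against -0.027 for all genes. With the length and GC trend removed these medians were 0.083 and 0.017. HSP90AA1 (0.64), HSPE1 (0.70), HSPA4L (0.71) and DNAJB14 (0.74) were among the higher, and BAG3 (-0.85) and DNAJC5 (-0.85) among the lower. The 2 comparisons of construct share no library. In them 23 members were higher in both, 14 were lower in both and 22 went opposite ways, so that 62.7% went the same way, against 63.1% of all genes. HSPA13 had changes of 1.23 and 0.99, DNAJA1 of 0.61 and 0.61, BAG6 of -0.87 and -0.90 and DNAJC5 of -0.87 and -0.85. Their GC contents are 34.9%, 41.7%, 59.5% and 57.7%, and the change between constructs with AIL fell with GC content across genes, as given below.

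**Figure D4:**
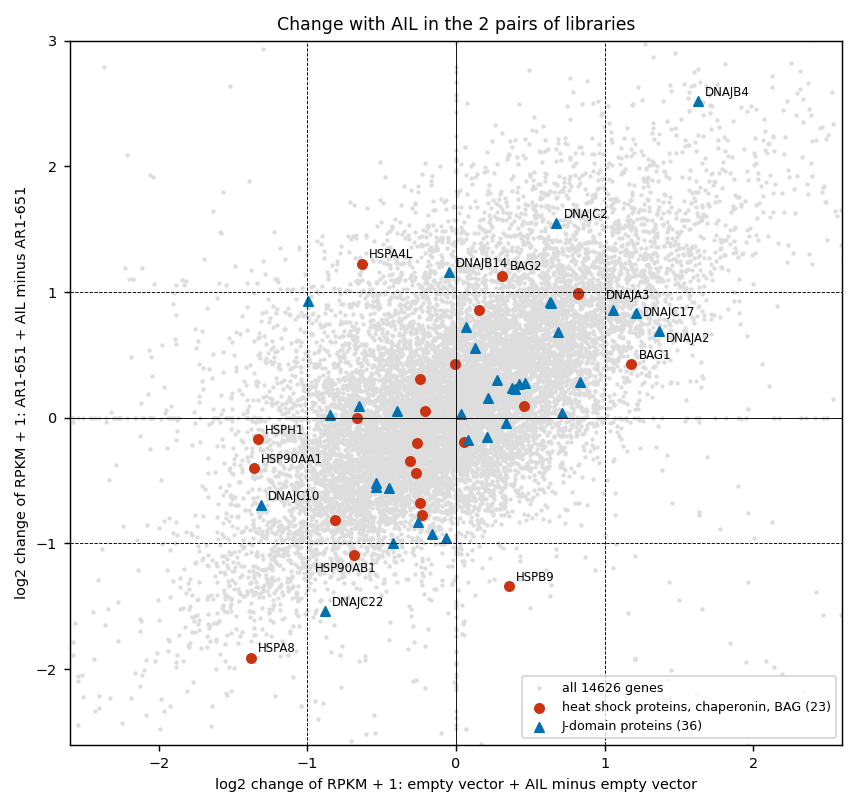
Change of log2(RPKM + 1) with AIL in empty vector cells (x axis) and in the AR1-651 pair (y axis) for the 59 members (red circles, heat shock, chaperonin and BAG genes; blue triangles, J-domain genes) over all 14626 genes (grey, of which 185 lie outside the axes); dashed lines mark 2-fold. DNAJB4 alone among the members lies beyond 2-fold at the upper right and HSPA8 alone at the lower left.

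The 2 comparisons with AIL share no library either, so the values in one were read against the other. Of the 59 members, 25 were higher in both, 19 were lower in both and 15 went opposite ways, so 74.6% had the same sign, against 70.2% of all genes. Across the 59 genes the changes had a Spearman rho of 0.61, and across all genes 0.59. These are correlations across genes within 1 set of libraries, which share transcript length and base composition as well as treatment. The difference of the 2 changes (AR1-651 pair minus empty vector cells) was largest for DNAJC13 (1.93), HSPA4L (1.86), DNAJB14 (1.21), HSPH1 (1.16) and HSP90AA1 (0.96). Apart from HSPB9, it was smallest for DNAJB5 (-0.89), DNAJB11 (-0.76), BAG1 (-0.75) and DNAJC8 (-0.68). Its median over the members was -0.012. The genes named with the largest difference have transcripts of 3207 (DNAJB14) to 10790 bases (HSPA4L), against a member median of 2988. Those named with the smallest have 1688 (DNAJB11) to 2599 bases (DNAJB5), and the part of length in the difference was not tested.

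The changes were related to transcript length and base composition across the whole table, and over the members alike. In the comparison of AR1-651 with empty vector, the change had a Spearman rho of -0.38 with transcript length over the 59 members and of -0.42 over 14005 genes with a length. In the AR1-651 pair the change with AIL had a rho of -0.39 with GC content over the members and of -0.41 over all genes, and in the comparison of constructs with AIL -0.72 and -0.61. In empty vector cells the change with AIL had a rho of -0.16 with length and of -0.11 with GC content over the members. DNAJB4 has a GC content of 33.1%, HSPA13 of 34.9% and HSPA4L of 38.1%, against a median of 45.5% for the members and 49.6% for all genes. With the trend removed, the change of DNAJB4, HSPA8, HSP90AA1 and HSP90AB1 stayed at least 2-fold where it had been, and HSPA4L (0.40), DNAJB14 (0.67) and DNAJC2 (0.89) were under 2-fold in the AR1-651 pair.

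Of the co-chaperones of HSP90, PTGES3, which encodes p23, had 119.7, 96.8, 83.5 and 84.25 RPKM and log2 changes of -0.30 and 0.013 with AIL. Of 13 measured co-chaperones, 2 were at least 2-fold higher with AIL in empty vector cells (STIP1 and TTC4) and 2 in the AR1-651 pair (CHORDC1 and TTC4), where 1 was at least 2-fold lower. The last was FKBP5, an androgen-induced gene, with 7.04, 7.29, 62.15 and 19.5 RPKM. STIP1 (HOP), which joins HSP70 to HSP90, had 149, 332, 312 and 386, highest with AIL while HSPA8 was lowest. Of 14 subunits of the cytosolic chaperonin TRiC and its partner prefoldin, 2 were at least 2-fold higher with AIL in empty vector cells (PFDN2 and PFDN4), 0 in the AR1-651 pair, and 4 in the library labelled AR1-651 against empty vector (CCT3, PFDN4, PFDN5 and PFDN6). Among other co-factors of HSP70, GRPEL2 and HSCB were at least 2-fold higher and HYOU1 at least 2-fold lower in empty vector cells, and GRPEL2 and HYOU1 again in the AR1-651 pair.

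Each of the 59 members was highest in 1 of the libraries: 17 with empty vector (28.8%), 6 with empty vector + AIL (10.2%), 13 in the library labelled AR1-651 (22.0%) and 23 in that labelled AR1-651 + AIL (39.0%). Of all genes 37.5%, 21.3%, 14.9% and 26.2% were highest there. The highest RPKM was 2.21 times the lowest in the median over the 57 members with at least 1 RPKM in every library, and 2.14 times over 11906 such genes. The 30 members not described by the naming rule had changes between -0.67 (HSPD1) and 0.84 (DNAJC12) with AIL in empty vector cells, and between -0.998 (DNAJC3) and 0.99 (BAG4) in the AR1-651 pair. Just inside the limit of 1 RPKM were BAG2 (1.19), HSPB9 (1.53) and HSPA12A (2.0) by their highest library, and just outside were DNAJC5B (0.88), DNAJC5G (0.78) and DNAJB7 (0.68). The other genes under the limit were DNAJA4, DNAJB13, DNAJC15, HSPA2, HSPA6, HSPA12B and HSPB6.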

How the data were processed

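RNA was sequenced from LNCaP cells under 4 conditions, 1 library each. The label protocol names both a Ribo-Zero total RNA kit and oligo(dT) enrichment. The authors deposited RPKM per gene with 2 decimals, under Entrez Gene and RefSeq identifiers. The submitters' processing notes name BWA 0.7.10-r789 and hg19, and the counting tool and strand setting are not given in the sources used here. RPKM scales with the mapped reads of the library, so genes that take more reads lower the values of the others. No read counts were used, whole reads could not be recovered from the RPKM steps, and the depth is unknown, so no counting interval is given.

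Symbols came from a RefSeq gene table (19703 genes matched). Changes are differences of log2(RPKM + 1), which understates those of low genes, over genes that reached RPKM 1 in any library, and a change of at least 2-fold was counted. Design and groups came from the labels, and a check of the construct is not reported here. Transcript length and GC content came from GENCODE release 29 by RefSeq identifier. The members and lists were chosen with earlier results of these data known. Values in all libraries were given for the chaperones whose protein the study measured, BAG1, each member past 2-fold, the most abundant member of each role, and the 5 largest and 5 smallest differences between the changes with AIL; others given by role were chosen after their values were seen. The run of 3 element units was searched after the data were seen.

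Alternatives were a pseudocount of 0.1, median-ratio scaling, other filters, rescaling without ribosomal protein genes, removal of the length and GC trend (a polynomial of degree 3 in ranks) and a 1.5-fold threshold. Calculations were tested on simulated data and used Python 3.11.15, NumPy 2.4.6, SciPy 1.17.1, pandas 2.3.3 and matplotlib 3.10.9.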

Additional observations from a re-analysis of the deposited data

Results flagged for a closer look

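Members that went opposite ways with AIL in the 2 backgrounds are listed where any comparison, those between constructs included, showed a change of at least 2-fold. DNAJC13, DNAJC4 and HSPA13 were past 2-fold only in AR1-651 against empty vector, not with AIL. That comparison shares 1 library with each AIL comparison, so the choice of these genes is not independent of the difference listed. The difference of the log2 changes (AR1-651 pair minus empty vector cells) was 1.93 for DNAJC13, 1.86 for HSPA4L, 1.21 for DNAJB14 and 0.87 for DNAJC4, which were lower with AIL in empty vector cells and higher in the AR1-651 pair. It was -0.24 for HSPA13 and -1.69 for HSPB9, which went the other way. HSPB9 was listed at 0 in the library labelled AR1-651 + AIL and had an RPKM of at most 1.53. DNAJC4 was lower in both backgrounds with median-ratio scaling (-0.15 in the AR1-651 pair), as was HSPA13 with rescaling without ribosomal protein genes (-0.050 in empty vector cells). The transcripts of DNAJC13 and HSPA4L are long (7730 and 10790 bases, against a member median of 2988), and that of DNAJC4 is short (1288). With 1 library per condition the difference was not tested.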

How the results depend on the processing

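The members at least 2-fold higher or lower and their medians moved with settings that shift the centre of all changes, and the cause was not tested. With median-ratio scaling, AR1-651 against empty vector had 10 higher and 1 lower members (7.29% and 5.59% of all genes) and a median of 0.072, the AR1-651 pair with AIL had 9 lower (8.62%) and a median of -0.12, the comparison of constructs with AIL had 1 higher (1.68%), and the median difference of the changes with AIL was -0.22. With the length and GC trend removed, the first had 7 higher and 0 lower (4.69% and 3.73%) and a median of 0.26, the AIL comparison in empty vector cells a median of -0.053, the AR1-651 pair 1 higher and 8 lower (8.30% and 7.52%) and a median of -0.34, and the median difference was -0.22. Without ribosomal protein genes, AR1-651 against empty vector had 5 lower (17%) and a median of -0.34, AIL in empty vector cells a median of -0.075, and the median difference was 0.13. A pseudocount of 0.1 gave 5 lower (20.9%) in the first comparison, 10 higher (20.6%) in the AR1-651 pair, and 1 higher and 1 lower (3.50% and 7.96%) between constructs with AIL. RPKM of at least 1 in all 4 libraries gave a median of -0.0055 for AIL in empty vector cells, and RPKM of at least 5 a median of 0.046 for AR1-651 against empty vector. A threshold of 1.5-fold gave 15 higher and 11 lower, 13 and 12, 16 and 12, and 8 and 6 in the 4 comparisons (AR1-651 against empty vector, AIL in empty vector cells, AIL in the AR1-651 pair, and constructs with AIL), against 10.7% and 32.3%, 21.0% and 22.1%, 28.6% and 14.7%, and 7.74% and 15.6% of all genes. Percentages here are of all genes under the same setting.

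Of 25 values of named members past 2-fold, 25 were kept with a pseudocount of 0.1, 22 with median-ratio scaling, 23 without ribosomal protein genes and 18 with the trend removed, and none of the 25 changed sign. Of 464 values of named members under these 4 settings, 17 had the opposite sign, each of a member and comparison whose main log2 change was 0.37 or less in size. No paired analysis was possible because each condition has 1 library, so the conditions share fewer than 2 replicate numbers. The depth is unknown, and members near the limit of 1 RPKM are the least certain.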
